A study of Mus musculus with 4 samples.

Results

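The NRF2 pathway, cystine uptake and ferroptosis were described in MC38 cells by the RNA levels of 10 genes chosen by name: Nfe2l2, Keap1, Nqo1, Txnrd1, Srxn1, Gclc, Gclm, Slc7a11, Gpx4 and Acsl4. All 10 were found by NCBI gene ID among the 27179 genes of the count table. MC38 is a mouse colon carcinoma cell line, labelled wild type. The untreated line gave 1 library under normoxia (20% oxygen) and 1 under hypoxia (1.5% oxygen), and the line given IFN-γ gave another library at each oxygen level. The study's methods give 5 ng/mL of IFN-γ for 24 h for most experiments, and no other dose is named for the RNA-seq libraries. The comparison asks how IFN-γ and low oxygen change gene expression in tumor cells.

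Keap1 RNA rose with IFN-γ under both oxygen levels. Gclm RNA rose with IFN-γ and Acsl4 RNA with hypoxia in the reported fit, but each of these calls was lost in 4 of 6 alternative fits, and the IFN-γ change of Acsl4 had about the size of its hypoxia change and was not called. The changes were 1.29-fold for Keap1, 1.16-fold for Gclm and 1.11-fold for Acsl4. IFN-γ calls were made for 2 of the 10 genes, beside 5.86% of all tested genes, and a hypoxia call for 1 of the 10, beside 15.0%. As a check of the labels, Irf1, a transcription factor gene induced by IFN-γ, went from 3770 and 4422 counts in the controls to 20118 and 23759 counts with IFN-γ. Car9, a carbonic anhydrase gene induced by low oxygen, went from 422 and 324 counts under normoxia to 1733 and 1536 counts under hypoxia. All 6 genes listed as IFN-γ checks were raised by IFN-γ with a median log2 change of 2.26, and all 6 listed as hypoxia checks were raised by hypoxia with a median of 1.27.

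NRF2, encoded by Nfe2l2, is a transcription factor that switches on antioxidant and detoxifying genes, and KEAP1 holds it in the cytoplasm and has it degraded until oxidants or electrophiles modify KEAP1. Its targets include the subunits of the enzyme that makes the first bond of glutathione, and the cystine transporter that feeds this synthesis. Ferroptosis is a form of cell death by peroxidation of membrane lipids. GPX4 uses glutathione to reduce lipid peroxides, whereas ACSL4, an acyl-CoA synthetase, activates the polyunsaturated fatty acids that become peroxidised in phospholipids. In T cell immunity IFN-γ is known for lowering the cystine transporter of tumor cells.

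NRF2 acts through the antioxidant response element, whose core TGACNNNGC was searched on both strands in the 250 bases before each RefSeq start site (GRCm38.p6). Of the 10 genes, 9 had a promoter sequence, with 14 start sites in all, and the core was present in 3 of the 9 (Nfe2l2, Gclm and Txnrd1). It was present in 11.5% of 27025 genes and 10.2% of 32851 windows of the same length. When an A after the core was also required, 1 of the 9 (Txnrd1) and 2.8% of genes had it. The 3 stretches with the core are shown, each from 250 to 71 bases before the start site in the direction of the gene, with the core in capitals, and that of Keap1, the gene with the largest fitted IFN-γ change of the 10, is shown beside them.
Nfe2l2: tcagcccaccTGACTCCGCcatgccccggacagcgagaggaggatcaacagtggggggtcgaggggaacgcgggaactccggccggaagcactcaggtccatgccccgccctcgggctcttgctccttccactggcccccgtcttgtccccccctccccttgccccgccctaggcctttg
Gclm: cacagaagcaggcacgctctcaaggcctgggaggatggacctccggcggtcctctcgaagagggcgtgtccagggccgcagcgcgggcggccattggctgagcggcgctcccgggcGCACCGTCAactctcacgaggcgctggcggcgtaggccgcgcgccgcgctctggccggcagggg
Txnrd1: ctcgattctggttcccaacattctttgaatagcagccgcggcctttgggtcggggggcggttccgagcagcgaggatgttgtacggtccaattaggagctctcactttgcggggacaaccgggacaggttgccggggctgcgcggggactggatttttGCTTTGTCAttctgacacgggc
Keap1: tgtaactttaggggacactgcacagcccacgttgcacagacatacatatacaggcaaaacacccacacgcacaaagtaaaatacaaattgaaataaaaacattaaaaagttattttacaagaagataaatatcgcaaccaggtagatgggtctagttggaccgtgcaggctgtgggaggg
The Nfe2l2 stretch lies on the minus strand at chr2:75704734-75704913, and its core runs in the direction of the gene, 240 to 232 bases before the start site. The Gclm stretch is chr3:122245307-122245486 on the plus strand, with the core read on the opposite strand (TGACGGTGC) at 134 to 126 bases. That of Txnrd1 is chr10:82858956-82859135 on the plus strand, before 1 of its 3 start sites, with the core on the opposite strand (TGACAAAGC) at 92 to 84 bases. The Keap1 stretch, chr9:21239403-21239582 on the minus strand, holds no core. None of these matches was tested for binding. Sequence farther than 250 bases before the start sites was not searched, so a gene without a match may have the core elsewhere.

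The 4 libraries held 34302971 to 34537939 counts on genes, so depth was nearly equal and raw counts can be set side by side, and 3 counts correspond to 0.0869 to 0.0875 CPM (counts scaled to the same library total). Several defining markers of colon epithelium were at or near 0. Cdh1 and Cdx2 had 0 counts in every library, Epcam had 0 to 2, Krt18 had 0 to 2, and 4 of the 7 epithelial markers did not exceed 3 counts in any library. The summed counts of the 7 were 63 to 101, mainly from Krt8 with 48 to 90 counts. Krt19 had 0 to 18 counts and Vil1 had 7 to 17. Markers of T cells summed to 7 to 21 counts, those of macrophages to 256 to 336 (mainly Cd68), those of endothelial cells to 26 to 50, and those of fibroblasts to 1321 to 1600 (mainly Pdgfra). Their part in the results was not tested.

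The test was edgeR's quasi-likelihood test with an additive model of oxygen and IFN-γ over all 4 libraries, and the adjusted p-values are Benjamini-Hochberg values over 13580 genes, among which were all 10. With 1 library per condition, no difference has a replicate check, and the spread in this test is the departure of the genes from additivity. In the reported fit edgeR took the spread of each gene wholly from the estimate pooled across genes. It did so in none of the other edgeR fits with the additive model. The adjusted p-values of the 3 called genes were smaller than in every alternative. Fitted changes are log2 changes with their standard error (SE).

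The genes lay over a wide range of RNA level (plot of level per length in the 4 libraries). On the scale of normalised CPM per kb of exon, Gpx4 was the most abundant with a mean of 109 and a range of 104 to 116 over the 4 libraries, above 96.5% of the tested genes with a known length. Txnrd1 (mean 55.2) and Nqo1 (52.5) followed, and their ranges over the libraries overlapped. Acsl4 (36.0), Nfe2l2 (32.7) and Srxn1 (32.3) came next, each overlapping the one after it in this order. Gclm (26.9) and Gclc (26.2), the 2 subunits of 1 enzyme, overlapped as well. Keap1 stood at 11.4 with a range of 9.96 to 12.9, and Slc7a11 was the least abundant at 1.97 with a range of 1.84 to 2.22, above 26.7% of tested genes. The order therefore had gaps that the conditions did not bridge after Gpx4, after Nqo1, after Srxn1, after Gclc and after Keap1. The lengths are those of all annotated exons of a gene together, and which of them these cells use was not measured. Levels and ratios between genes depend on these lengths. The level of Gpx4, its rank and ratios with it are also uncertain, since 38.9% of its words of 31 bases also occur in other genes.

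**Figure D1:**
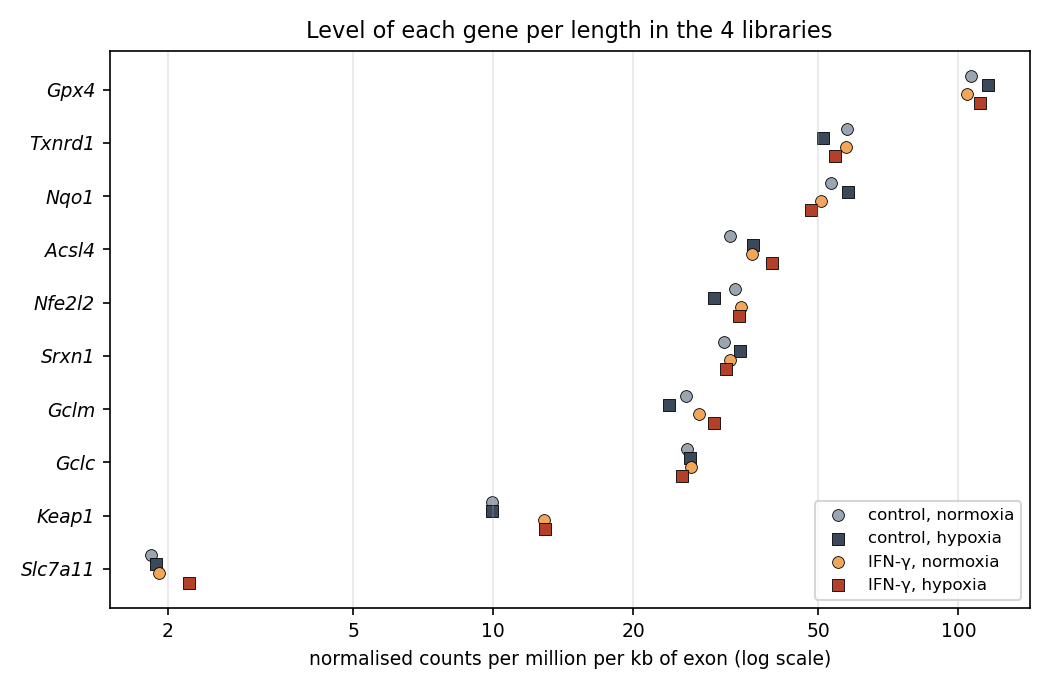
Normalised CPM per kb of exon (log axis) of each gene, 1 point per library, with colour and shape giving the condition. Gpx4 lies at 104 to 116 and Slc7a11 at 1.84 to 2.22, and the IFN-γ points of Keap1 lie to the right of both of its controls.

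Of the 10 genes, 2 were raised by IFN-γ and 0 were lowered, with fitted log2 changes from −0.17 to 0.37 and a median of 0.08, beside a median of −0.01 over all tested genes. Over all tested genes, 4.76% were called as raised by IFN-γ, 1.1% as lowered and 5.86% in either direction. At an unadjusted p under 0.05, 3 of the 10 were raised and 1 was lowered, and DESeq2 called 1 as raised and 0 as lowered, with 0 lowered at its unadjusted p as well. For hypoxia, 1 of the 10 was raised and 0 were lowered, with log2 changes from −0.12 to 0.15 and a median of 0.02. Over all tested genes 8.21% were called as raised by hypoxia, 6.83% as lowered and 15.0% in either direction. The unadjusted p under 0.05 gave 1 raised and 1 lowered, and DESeq2 called 0 in either direction, with 1 raised and 0 lowered at its unadjusted p. The shares of the 10 were not tested against those of all genes. The shares over all genes are those of edgeR's adjusted p. No share over all genes was taken at an unadjusted p, so those counts, here and below, have none beside them. Of 13580 tested genes, DESeq2 called 353 as raised and 16 as lowered by IFN-γ, and 360 and 203 by hypoxia.

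**Figure D2:**
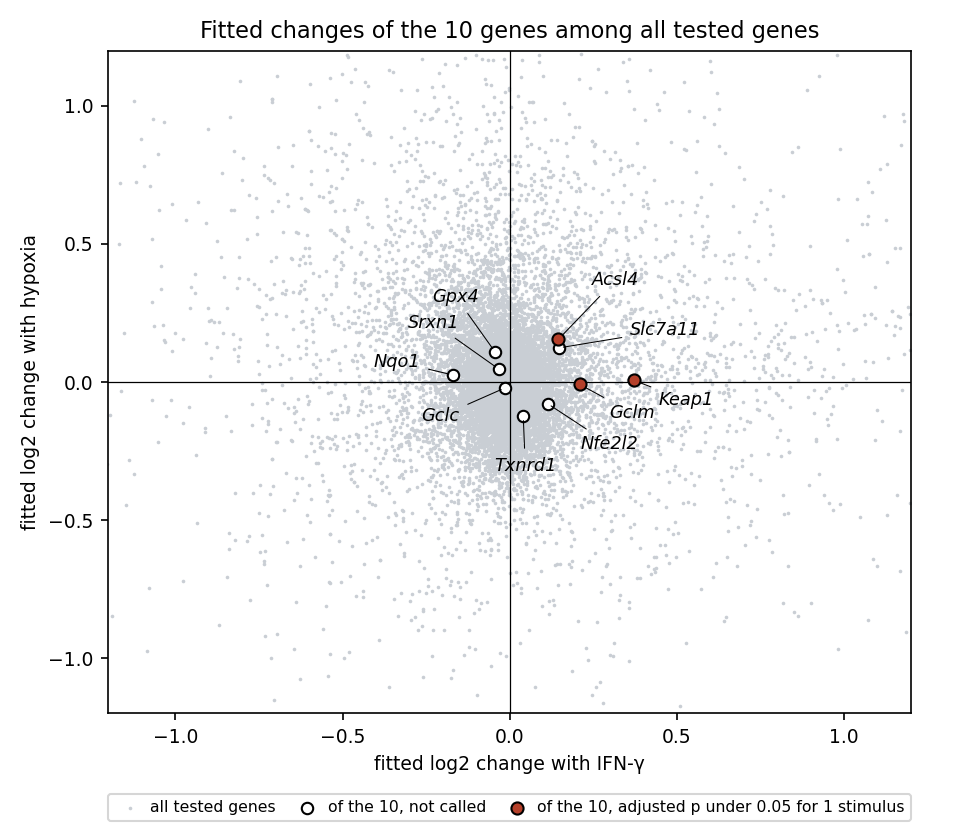
Fitted log2 change with IFN-γ (horizontal) against that with hypoxia (vertical) for all tested genes in grey and the 10 genes in circles, filled where the adjusted p was under 0.05 for 1 stimulus. The circles lie from −0.17 to 0.37 on the horizontal and from −0.12 to 0.15 on the vertical axis, and 412 tested genes lie beyond the axis limits of 1.2.

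Keap1 (gene ID 50868, chr9:21229730-21239332, minus strand), the sensor that marks NRF2 for degradation, had 1619 counts in the control under normoxia and 1617 under hypoxia, and 2067 and 2080 counts with IFN-γ. The libraries with IFN-γ were both higher than both controls, and the 2 oxygen levels hardly differed. The fitted IFN-γ change was 0.37 (SE 0.0719), which is 1.29-fold, with an adjusted p of 9.33e-06 by edgeR. It was called in 5 of 6 alternative fits, with adjusted p from 0.000376 to 0.119, and the call ended in the model without the oxygen term. The change was 0.37 (95% counting interval 0.27 to 0.46) under normoxia and 0.38 (0.28 to 0.47) under hypoxia. The fitted hypoxia change was 0.01 (SE 0.0719, edgeR adjusted p = 0.974). Keap1 overlaps the antisense gene Gm16754 in 510 bases of exon, 10.9% of its own, and whether the counting used strand is not given in the sources used here.

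Nfe2l2 (18024, chr2:75675513-75704663, minus strand), the gene of NRF2 itself, had 4342 counts in the control under normoxia, 3920 in the control under hypoxia, and 4442 and 4400 counts with IFN-γ under normoxia and hypoxia. The control under hypoxia was the lowest library and the other 3 lay close together. The fitted IFN-γ change was 0.11 (SE 0.0602, edgeR adjusted p = 0.398) and the fitted hypoxia change −0.08 (SE 0.0602, adjusted p = 0.439), and neither was called in any of the 6 alternative fits. Per length, the Keap1 level was 30.2% of that of Nfe2l2 in the control under normoxia and 33.4% in the control under hypoxia, against 37.6% and 38.2% with IFN-γ.

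Among the NRF2 target enzymes, Nqo1 (18104, chr8:107388225-107403205, minus strand), a quinone reductase much used as a readout of NRF2, had 2868 and 3111 counts in the controls under normoxia and hypoxia and 2697 and 2565 counts with IFN-γ. Both libraries with IFN-γ were lower than both controls. The fitted IFN-γ change was −0.17 (SE 0.0655), with an edgeR adjusted p of 0.123, the lowest of the 10 fitted IFN-γ changes and not past the threshold. The pair under hypoxia gave −0.27 (95% counting interval −0.34 to −0.19), and the pair under normoxia −0.07 (−0.15 to 0.00).

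Txnrd1 (50493, chr10:82833951-82897724, plus strand), cytosolic thioredoxin reductase, had 14148 and 12546 counts in the controls and 13954 and 13202 counts with IFN-γ. The libraries under hypoxia were both lower than those under normoxia, by a fitted log2 change of −0.12 (SE 0.0514, edgeR adjusted p = 0.0826), while the IFN-γ change was 0.04 (SE 0.0513, adjusted p = 0.867). Srxn1 (76650, chr2:152105524-152111376, plus strand), the sulfiredoxin that repairs overoxidised peroxiredoxins, had 3065, 3316, 3117 and 3062 counts in the order control normoxia, control hypoxia, IFN-γ normoxia and IFN-γ hypoxia. The control under hypoxia was its highest library and the other 3 lay close together. It had a fitted IFN-γ change of −0.03 and a hypoxia change of 0.05 (edgeR adjusted p = 0.931 and 0.707).

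Glutathione synthesis starts with glutamate-cysteine ligase, made of a catalytic subunit (Gclc) and a modifier subunit (Gclm). Gclm (14630, chr3:122245487-122267215, plus strand) had 5663 and 5192 counts in the controls under normoxia and hypoxia, and 5990 and 6434 counts with IFN-γ. Both IFN-γ libraries exceeded both controls. The fitted IFN-γ change was 0.21 (SE 0.0575), which is 1.16-fold, with an edgeR adjusted p of 0.0067. The call held in 2 of 6 alternative fits, with adjusted p from 0.0291 to 0.849, and ended with total counts in place of TMM, without the filter on low counts, in DESeq2 and in the model without oxygen. The 2 pairs, each of which is also the fitted change when a library of the other pair is left out, were unequal, with an IFN-γ change of 0.10 (95% counting interval 0.04 to 0.15) under normoxia and 0.32 (0.27 to 0.38) under hypoxia. Words of 31 bases that also occur in another gene made up 6.82% of Gclm.

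Gclc (14629, chr9:77754535-77794489, plus strand) varied least of the 10, with 3407 and 3451 counts in the controls and 3440 and 3288 counts with IFN-γ, and its highest normalised level exceeded its lowest by 4.53%. The fitted IFN-γ change was −0.01 and the hypoxia change −0.02 (edgeR adjusted p = 0.978 and 0.876). The ratio of the 2 subunits moved with Gclm. Per length, Gclm RNA was 99.5% of Gclc RNA in the control under normoxia, 90.1% in the control under hypoxia, 104% with IFN-γ under normoxia and 117% with IFN-γ under hypoxia.

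Slc7a11 (26570, chr3:50364936-50499087, minus strand), the light chain of the cystine-glutamate exchanger, had 889 and 908 counts in the controls and 916 and 1060 counts with IFN-γ. The 3 other libraries were close together and the library with both stimuli was the highest. Its RNA had a fitted IFN-γ change of 0.15 (SE 0.0832, edgeR adjusted p = 0.445) and a hypoxia change of 0.12 (SE 0.0832, adjusted p = 0.358). A lower level with IFN-γ was thus not seen in either pair, with 0.06 (95% counting interval −0.08 to 0.19) under normoxia and 0.24 (0.11 to 0.37) under hypoxia. Its heavy chain Slc3a2, which also serves other amino acid transporters, had 12225 and 10618 counts in the controls and 12220 and 10429 counts with IFN-γ, and fell with hypoxia by 0.21 on the log2 scale (SE 0.0524, edgeR adjusted p = 0.000804, called in 5 of 6 alternatives). Per length, Slc3a2 RNA was 54.2 times that of Slc7a11 in the control under normoxia, 46.1 times in the control under hypoxia, and 52.6 and 38.8 times with IFN-γ.

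Gpx4 (625249, chr10:80047166-80056439, plus strand), the lipid peroxide reductase that holds off ferroptosis, had 6351 and 6899 counts in the controls and 6156 and 6572 counts with IFN-γ. Both libraries under hypoxia were higher than both under normoxia, with a fitted hypoxia change of 0.11 (SE 0.0566) that did not pass (edgeR adjusted p = 0.199). The IFN-γ change was −0.04 (SE 0.0566, adjusted p = 0.870). These counts are uncertain, since 38.9% of the 31-base words of Gpx4 also occur in other genes, foremost the pseudogene Gpx4-ps2, and how reads that match several places were counted is not given in the sources used here.

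Acsl4 (50790, chrX:142317993-142390802, minus strand), the acyl-CoA synthetase that supplies the lipids ferroptosis acts on, had 6034 counts in the control under normoxia, 6772 in the control under hypoxia, 6675 with IFN-γ under normoxia and 7350 with both. The untreated library under normoxia was the lowest and the library with both stimuli the highest. The fitted hypoxia change was 0.15 (SE 0.0563), which is 1.11-fold, with an edgeR adjusted p of 0.0424. It was called in 2 of 6 alternative fits, with adjusted p from 0.0443 to 0.402. The fitted IFN-γ change had about the same size, 0.15 (SE 0.0563), and was not called (adjusted p = 0.128). All 4 pairs were positive, from 0.13 to 0.17, each with a 95% counting interval above 0. Per length, Gpx4 RNA was 3.30 times Acsl4 RNA in the control under normoxia, 3.19 times in the control under hypoxia, and 2.89 and 2.80 times with IFN-γ.

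The change in each single pair of libraries was also set out with its counting interval, which covers counting error only and not the difference between cultures. Under normoxia the interval of the IFN-γ change left out 0 for 3 of the 10 genes, and under hypoxia for 9 of them, with Gclc as the exception. No share over all genes stands beside these counts, so they do not show a stronger response under hypoxia. The intervals are narrow at these counts, and even the Gpx4 change of −0.06 under hypoxia was among the 9. The IFN-γ changes under hypoxia were above those under normoxia by 0.23 for Gclm (95% counting interval 0.15 to 0.30), by 0.13 for Nfe2l2 (0.05 to 0.22) and by 0.09 for Txnrd1 (0.04 to 0.14). They were below them by a difference of −0.19 for Nqo1 (−0.30 to −0.08) and −0.14 for Srxn1 (−0.24 to −0.04). The interval of the difference included 0 for the other 5 genes, Keap1 among them (0.01, −0.12 to 0.14). Over the 10443 genes counted at least 100 times in each of the 4 libraries, 34.5% had an interval without 0 and the central 95% of the differences ran from −0.36 to 0.40, a range that held all 10 genes. The difference was not tested, since a model with this term leaves no spread to test it against.

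**Figure D3:**
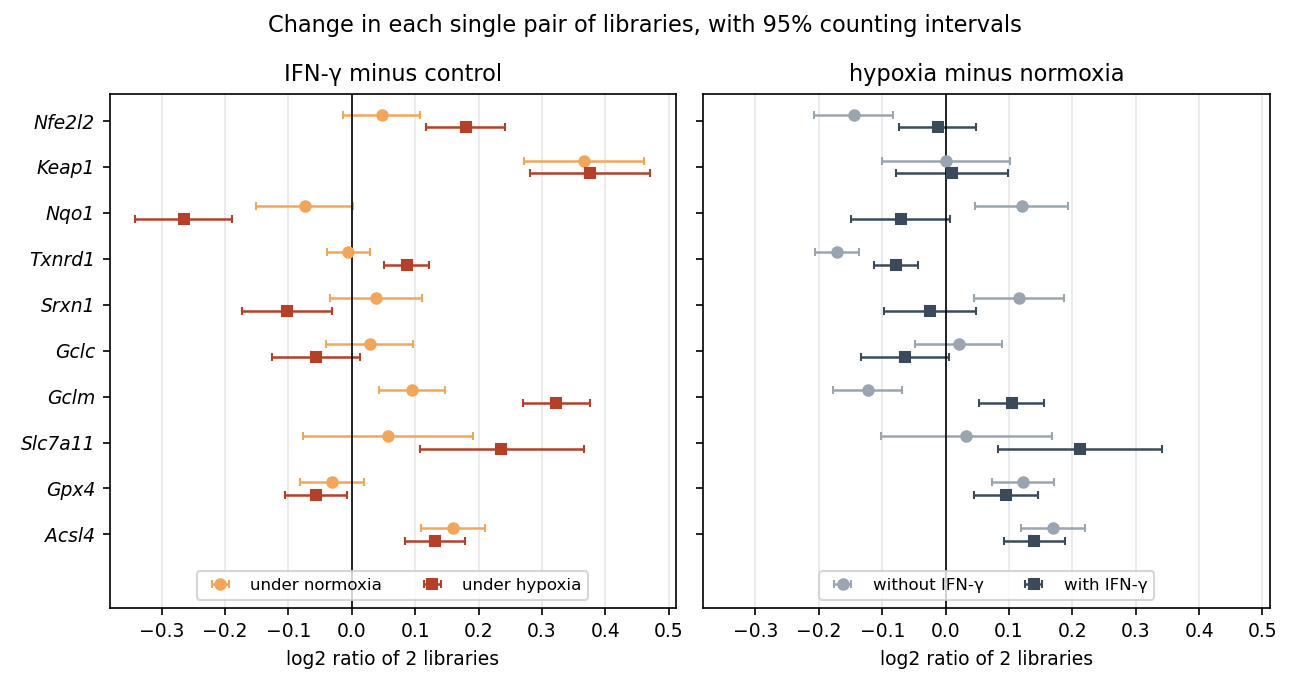
Log2 ratio of 2 libraries for each gene, IFN-γ minus control on the left (circles under normoxia, squares under hypoxia) and hypoxia minus normoxia on the right (circles without IFN-γ, squares with it), with 95% counting intervals as bars. Both Keap1 ratios lie at 0.37 and 0.38 on the left, and the Gclm ratios on the right lie on opposite sides of 0, at −0.12 and 0.10.

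Beyond the 10 genes, 122 other genes of the same pathways were listed, of which 109 were tested. IFN-γ raised 4 of them and lowered 3, 6.42% in all, with a median log2 change of −0.02. Hypoxia raised 10 and lowered 14, 22.0% in all, with a median of 0.00. These lists were made with earlier results of these data known, and their shares stand beside 5.86% and 15.0% of all tested genes. By direction, IFN-γ raised 4.76% and lowered 1.1% of all tested genes, and hypoxia raised 8.21% and lowered 6.83%. The counts of each list below stand beside these shares and were not tested against them.

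Among 10 genes that control NRF2 (partners, competitors and the degradation machinery), IFN-γ raised 1 and hypoxia raised 1. Mafk, a small MAF protein that pairs with NRF2 on DNA, had 2261 and 2196 counts in the controls and 2873 and 2726 counts with IFN-γ, a fitted change of 0.34 (SE 0.0672, edgeR adjusted p = 1.32e-05). Its relative Maff had 771 and 959 counts under normoxia and 1413 and 1492 counts under hypoxia, a hypoxia change of 0.76 (adjusted p = 4.04e-19). These 2 genes thus passed for different stimuli, a contrast that was not tested. Maff also had a positive IFN-γ change of 0.20 that was not called (edgeR adjusted p = 0.141). Mafg, another small MAF gene of the list, was called for neither stimulus. Its changes were 0.13 with IFN-γ (adjusted p = 0.480) and 0.03 with hypoxia (adjusted p = 0.847).

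Of 32 other NRF2 targets tested, IFN-γ raised 2 and lowered 1, and hypoxia raised 4 and lowered 1. Hmox1, heme oxygenase 1, which is induced by several stress pathways besides NRF2, had 4922 and 5388 counts under normoxia and 8393 and 10550 counts under hypoxia. Its hypoxia change of 0.87 (SE 0.0562, edgeR adjusted p = 2.79e-51) held in 6 of 6 alternatives, and its IFN-γ change of 0.25 (adjusted p = 0.000321) in 4 of 6. The pairs gave IFN-γ changes of 0.14 under normoxia and 0.34 under hypoxia for Hmox1. Mgst1, a microsomal glutathione transferase, rose with IFN-γ by 0.52 (adjusted p = 4.23e-10), from 1282 and 1178 to 1870 and 1619 counts. Tkt, transketolase of the pentose phosphate pathway, fell with IFN-γ by 0.21 on the log2 scale (adjusted p = 0.00134, called in 4 of 6 alternatives). With hypoxia, Me1, an NADPH-making malic enzyme, rose by 0.64 (adjusted p = 1.02e-27), Ugdh, which makes UDP-glucuronate, by 0.39 and the export pump gene Abcc1 by 0.30, whereas the aldose reductase gene Akr1b3 fell by 0.23 on the log2 scale. Me1 shares 36.9% of its 31-base words with other genes, so its counts are uncertain. Nqo1, Txnrd1, Srxn1, Gclc and Gclm, measured in the same libraries, had hypoxia changes between −0.12 and 0.05.

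**Figure D4:**
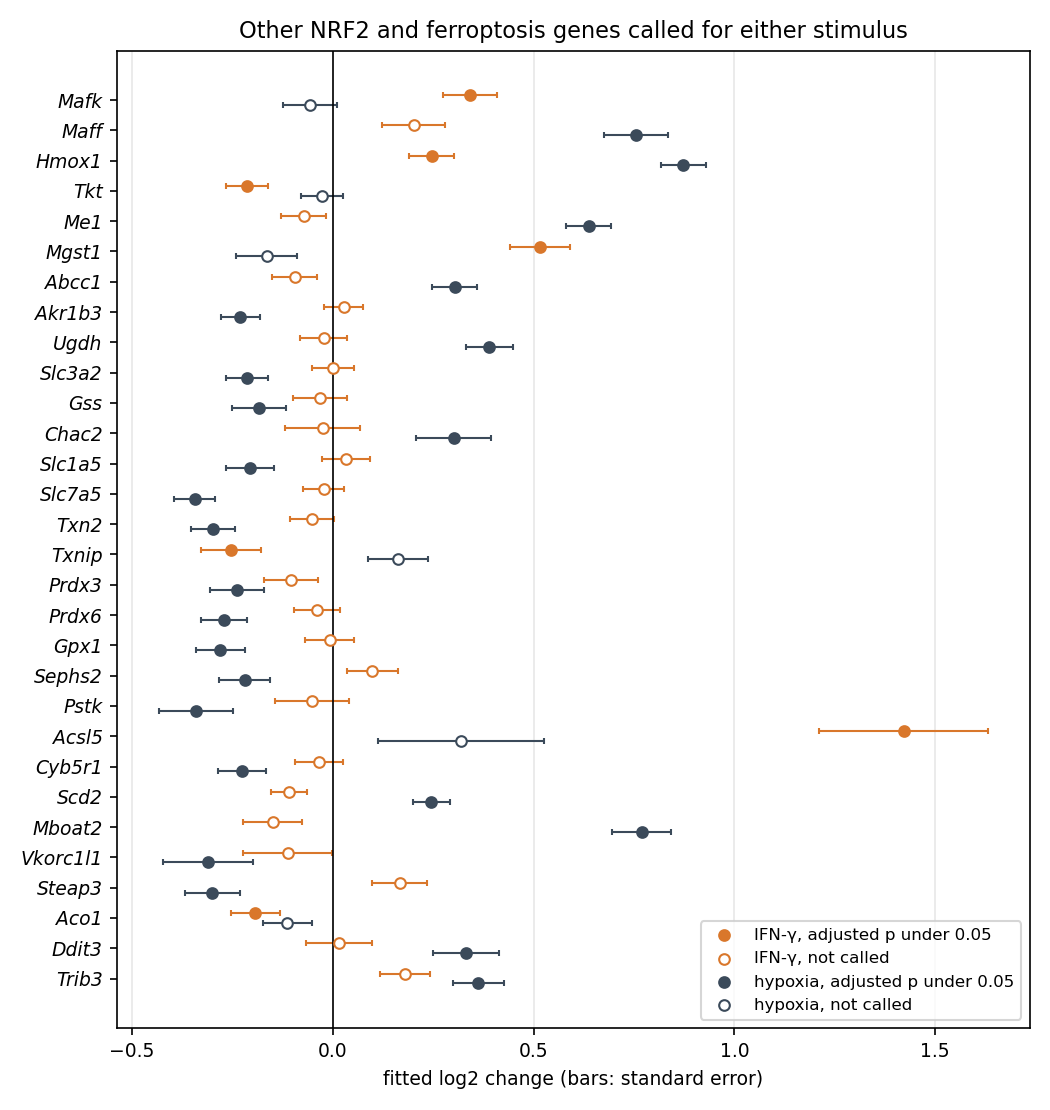
Fitted log2 change with IFN-γ and with hypoxia, with SE bars, for the 30 other pathway genes called for either stimulus, filled where the adjusted p was under 0.05. Hmox1, Mboat2, Maff and Me1 lie at 0.64 to 0.87 for hypoxia, and Acsl5 at 1.42 for IFN-γ.

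Of 11 other genes of cystine uptake and glutathione synthesis tested, IFN-γ changed 0 by edgeR and 0 by DESeq2, at the adjusted p and also at an unadjusted p under 0.05, and hypoxia raised 1 and lowered 4. The lowered genes were Slc3a2 (above), Slc7a5, another of its light chain partners, the glutamine transporter gene Slc1a5 and the glutathione synthetase gene Gss. Slc7a5 went from 19938 and 17937 counts under normoxia to 14467 and 15298 counts under hypoxia, a change of −0.34 (edgeR adjusted p = 5.17e-10), with −0.46 without and −0.23 with IFN-γ. Chac2, which degrades glutathione, rose with hypoxia by 0.30 (adjusted p = 0.0124), with 0.41 without and 0.19 with IFN-γ. The Gss call held in 2 of 6 alternatives, the Chac2 call in 3 and the Slc1a5 call in 4.

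Among 14 genes of the thioredoxin and peroxiredoxin systems, hypoxia lowered 3. Txn2, mitochondrial thioredoxin, fell by 0.30 on the log2 scale, and the peroxiredoxin genes Prdx6 and Prdx3 fell by 0.27 and by 0.24. The Prdx3 call held in 4 of 6 alternatives. IFN-γ lowered Txnip, an inhibitor of thioredoxin, by a change of −0.25 (edgeR adjusted p = 0.0143, called in 3 of 6 alternatives). Among 9 genes of other glutathione peroxidases and of selenoprotein synthesis, hypoxia lowered 3. Gpx1, the cytosolic glutathione peroxidase, went from 4308 and 4443 counts under normoxia to 3708 and 3489 counts under hypoxia, a change of −0.28 (adjusted p = 0.000107). The other two, Pstk and Sephs2, act in making selenocysteine and share 58.7% and 35.5% of their words with other genes, so their counts are uncertain. The Pstk change of −0.34 came from −0.22 without and −0.47 with IFN-γ. The Pstk and Sephs2 calls each held in 4 of 6 alternatives. Gpx4, also a selenoprotein, had a positive hypoxia change of 0.11 that was not called.

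Of 15 lipid enzymes other than Acsl4 tested, IFN-γ raised Acsl5, another acyl-CoA synthetase, from 57 and 73 counts in the controls to 155 and 190 counts, a change of 1.42 (SE 0.211, edgeR adjusted p = 7.77e-10) that was called in 6 of 6 alternatives. Hypoxia raised Mboat2, an acyltransferase for phospholipids, from 1376 and 1148 counts to 2199 and 2085 counts, a change of 0.77 (adjusted p = 4.08e-23), and raised Scd2, a fatty acid desaturase, by 0.25. Hypoxia lowered Cyb5r1, a reductase, by a change of −0.23, called in 4 of 6 alternatives. Among 9 genes listed for their link to ferroptosis control without GPX4, hypoxia lowered Vkorc1l1 (−0.31, edgeR adjusted p = 0.0388), a call that held in 0 of 6 alternatives. The list is not complete. Mboat2, raised by hypoxia (above), and Mboat1 were listed with the lipid enzymes and are not among these 9. IFN-γ changed 0 of the 9 by edgeR's adjusted p (2 raised at an unadjusted p under 0.05) and 0 by DESeq2 at either p.

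Of 10 genes of iron handling tested, Hmox1, counted above as an NRF2 target, was the only one raised by either stimulus in the edgeR fit. IFN-γ lowered Aco1, the iron-sensing aconitase (−0.19, edgeR adjusted p = 0.0314, called in 2 of 6 alternatives). Hypoxia lowered Steap3, a ferric reductase (−0.30, edgeR adjusted p = 0.00031, called in 4 of 6). Among 8 stress readouts, hypoxia raised Trib3 (0.36, adjusted p = 4.1e-07) and Ddit3 (0.33, adjusted p = 0.000992), both known targets of the integrated stress response. Without IFN-γ these changes were 0.53 for Trib3 and 0.51 for Ddit3, and with IFN-γ they were 0.20 and 0.16. The Trib3 call held in 5 of 6 alternatives and the Ddit3 call in 4. The other 6 readouts were not called for hypoxia, with changes from −0.0046 (Chac1) to 0.45 (Atf3), and 0.04 for Atf4. IFN-γ changed 0 of the 8 by edgeR's adjusted p (2 raised at an unadjusted p under 0.05) and 0 by DESeq2 at either p.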

How the data were processed

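RNA was taken from MC38 cells, 1 sample per condition, and poly-A RNA was made into strand-specific libraries by the dUTP method and read from both ends on the DNBSEQ platform. The authors aligned the reads with HISAT2 and deposited whole-number counts per gene without normalization, and the submitters' processing notes name featureCounts and mm10 (versions, annotation, strand and multi-mapping settings are not given in the sources used here). Symbols and coordinates came from RefSeq for GRCm38.p6, the same build as mm10, and 25275 of 27179 IDs matched. Exon lengths and shared 31-base words came from GENCODE M21 and covered 91.1% of the tested genes.

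Counts were tested with edgeR 4.0.16 (R 4.3.3), by the quasi-likelihood test with TMM, edgeR's filter at a minimum of 10 counts, an additive model (1 residual degree of freedom) and Benjamini-Hochberg adjustment at 0.05. The common dispersion of 0.00222 corresponds to a coefficient of variation of 4.71%. The script was tested on simulated data. Single pairs are log2 ratios of TMM-normalised CPM with 0.5 counts added and exact conditional 95% intervals (Clopper-Pearson), and differences of pairs have Poisson intervals, all for counting error only. Alternatives were DESeq2's size factors, total counts, no filter, at least 10 counts in every library, DESeq2 1.42.0 and a model without the other stimulus. Named genes were the 10, Irf1 and Car9 as label checks, cell type markers, and at most the 4 largest called changes per list, stimulus and direction. The 10 genes and the lists were chosen with earlier results of these data known.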

Additional observations from a re-analysis of the deposited data

Results flagged for a closer look

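The IFN-γ change had opposite signs under the 2 oxygen levels for 3 of the 10 genes, as it did for 43.6% of the 10443 well-counted genes. The difference (hypoxia minus normoxia, log2) was −0.0849 for Gclc (95% counting interval −0.18 to 0.01), 0.0923 for Txnrd1 (0.04 to 0.14) and −0.14 for Srxn1 (−0.24 to −0.04). The normoxia change of each of the 3 had a counting interval that included 0, as did the hypoxia change of Gclc, so opposite directions were not shown beyond counting error. The differences were not tested, because each condition had 1 library.

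The hypoxia change had opposite signs without and with IFN-γ for 4 genes, and for 31.8% of the well-counted genes. The difference (with minus without IFN-γ) was −0.19 for Nqo1 (95% counting interval −0.30 to −0.08), −0.0849 for Gclc, 0.23 for Gclm (0.15 to 0.30) and −0.14 for Srxn1, and was not tested. It is the same quantity as the difference of the IFN-γ changes, since both are taken over the same 4 libraries. With IFN-γ, the hypoxia changes of Nqo1 (−0.07, −0.15 to 0.01) and Srxn1 (−0.02, −0.10 to 0.05) had intervals that included 0, and so did both of those of Gclc. For Gclm both intervals left out 0, at −0.12 (−0.18 to −0.07) without IFN-γ and 0.10 (0.05 to 0.16) with it.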

How the results depend on the processing

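Of 120 fitted changes of the 10 genes over 6 alternatives, 110 kept their direction and their side of the threshold, 9 were no longer called and 1 turned, Keap1 with hypoxia, at −0.0032 without the filter on low counts. All 100 single-pair and difference values stayed within their counting intervals with total counts or with 5 counts added. Of the 10 genes, IFN-γ calls numbered 1 with total counts, 1 with no filter, 1 in DESeq2 and 0 in the model without oxygen (1 at its unadjusted p under 0.05). Hypoxia calls numbered 0 in each of the matching alternatives (2, 2, 1 and 0 at the unadjusted p in either direction). Over all genes, IFN-γ calls fell from 796 to 369 in DESeq2 (353 raised, 16 lowered) and 242 in the model without oxygen (239 and 3), and hypoxia calls from 2042 to 563 (360 and 203) and 176 (150 and 26). Of the other listed genes, 3 and 1 remained as IFN-γ counts and 14 and 4 as hypoxia counts in these 2 fits. The antioxidant core followed by A was present before 1 gene in place of 3.

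In the reported fit the prior had infinite degrees of freedom, so edgeR took each gene's spread wholly from the estimate pooled across genes. The other edgeR fits of the additive model gave a prior of 16.5 to 23.2 degrees of freedom. The additive model pairs the libraries by the other stimulus, and the model without that stimulus is its unpaired alternative. Leaving out a library leaves 0 residual degrees of freedom, so the test is lost, and the fitted change becomes that of the pair left whole, at 0.37 or 0.38 for Keap1 with IFN-γ, 0.10 or 0.32 for Gclm with IFN-γ and 0.14 or 0.17 for Acsl4 with hypoxia. The counting intervals reflect depth alone, and the spread between cultures was not measured.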
